A study of Mus musculus with 16 samples.

Results

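The genes described here were Pdk4, Ucp3, Acot1, Acot2, Angptl4, Cd36, Fabp3, Cpt1a and Cpt1b, 9 targets of the peroxisome proliferator-activated receptors (PPARs) whose transcripts respond to fasting. They were chosen by gene name from the probe annotation of the arrays, which gave 12 of 41174 probes, or 9 of 27745 gene names, and 11 of the 12 probes passed a filter on weak signals. The values came from gastrocnemius, a mixed but mainly fast muscle of the calf, in 16 male C57BL/6N mice, 8 in each of 2 diet groups. Each mouse had its own array, on which its Cy5-labelled RNA was hybridised together with a common Cy3-labelled pool, and every value below is a log2 ratio of the mouse to that pool unless stated otherwise. The labels also count mice on a higher rosiglitazone dose among the sources of the pool.

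The cHF+ROSI mice had eaten a corn oil-based high-fat diet, about 35% lipid by weight, with rosiglitazone at 10 mg per kg diet for 8 weeks from an age of 3 months. The cHF+F+ROSI mice received the same diet and drug for the same time, except that a concentrate of long-chain n-3 polyunsaturated fatty acids (n-3 LC-PUFA) took the place of 15% of the dietary lipids. Rosiglitazone, an agonist of PPARγ, was therefore shared by all 16 mice, and the comparison concerned the exchange of part of the dietary lipids for n-3 LC-PUFA. The paper also reports a lower final body weight in the cHF+F+ROSI mice than in the cHF+ROSI mice. The part of body weight in the values below was not tested. All mice had passed through the diet-switch protocol, in which a daytime fast of 10 h was followed by a night on low-fat Chow diet, so that the muscles were taken in the re-fed and not in the fasted state. Mice on Chow, on the plain cHF diet or in the fasted state were not analysed here, and no change with fasting could be measured. The question put to these genes was whether adding n-3 LC-PUFA to rosiglitazone changed the transcripts that set fuel choice in muscle, and how far they moved together from mouse to mouse.

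PPARs are nuclear receptors that bind DNA as dimers with retinoid X receptors and are activated by fatty acids, n-3 LC-PUFA among them. In muscle, PPARα and PPARδ are the forms best known for switching on fatty acid uptake and oxidation when fatty acids reach the tissue during a fast, and carbohydrate feeding and insulin turn the same genes down. Among the genes described here, Cd36 takes fatty acids up at the plasma membrane and Fabp3 carries them in the cytosol. Cpt1a and Cpt1b make the acylcarnitines that enter mitochondria, Acot1 in the cytosol and Acot2 in mitochondria release fatty acids from acyl-CoA, and Ucp3 is an anion carrier of the inner mitochondrial membrane. Pdk4 inhibits the pyruvate dehydrogenase complex and so spares glucose, and Angptl4 is a secreted inhibitor of lipoprotein lipase.

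Promoter windows of 300 bases, from 250 bases before to 50 bases after the start of the gene, were given by RefSeq on the build GRCm38.p6 for 7 of the 9 genes, all except Angptl4 and Cpt1b. The classic PPAR element is a direct repeat (DR1) of the hexamer AGGTCA with any 1 base between the copies, and on either strand it was found in 0 of the 7 windows and in 0.0396% of 32851 windows of this length over all genes. A looser form, with any base at the fourth place of each hexamer (AGGNCA), was found in 0 of the 7 windows and in 0.381% of all windows. The single hexamer AGGTCA, which lies within the full repeat and was added to the search later, was held by 3 of the 7 windows, those of Ucp3, Cd36 and Cpt1a, against 16.3% of all windows. The matches describe letters in these windows and neither bound sites nor their absence elsewhere. The windows of Pdk4 (chr6:5496229-5496528, minus strand) and Acot2 (chr12:83987611-83987910, plus strand) are shown because these genes had the closest co-variation among the mice, and that of Ucp3 (chr7:100472741-100473040, plus strand) because it held the hexamer at 2 places, beginning at base -149 and at base -44 from the start. Each is written 5′ to 3′ on the strand of the gene, with the hexamer in capitals.
Pdk4: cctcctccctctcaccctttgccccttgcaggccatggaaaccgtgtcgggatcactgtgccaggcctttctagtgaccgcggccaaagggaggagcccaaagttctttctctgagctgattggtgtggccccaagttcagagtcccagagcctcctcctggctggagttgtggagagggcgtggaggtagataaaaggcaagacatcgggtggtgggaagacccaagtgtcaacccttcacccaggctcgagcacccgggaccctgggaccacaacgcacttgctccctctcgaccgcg
Acot2: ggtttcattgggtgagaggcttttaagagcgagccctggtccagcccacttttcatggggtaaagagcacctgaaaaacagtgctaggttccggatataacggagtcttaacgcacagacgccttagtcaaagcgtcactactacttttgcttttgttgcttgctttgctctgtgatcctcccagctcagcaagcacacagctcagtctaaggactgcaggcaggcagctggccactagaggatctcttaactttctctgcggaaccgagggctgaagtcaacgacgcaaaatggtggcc
Ucp3: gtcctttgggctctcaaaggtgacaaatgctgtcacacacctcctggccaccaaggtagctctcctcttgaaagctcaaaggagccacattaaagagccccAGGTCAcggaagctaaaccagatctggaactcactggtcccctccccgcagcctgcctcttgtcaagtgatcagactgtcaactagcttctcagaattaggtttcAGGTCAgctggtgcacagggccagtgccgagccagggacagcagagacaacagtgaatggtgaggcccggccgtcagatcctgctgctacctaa
The windows of Pdk4 and Acot2 shared 57.3% of their bases in a global alignment, which lies within the range from 53.3% to 63.0% over the 21 pairs of windows. Acot1 and Acot2, neighbours on chromosome 12 and close paralogs with very similar coding parts, shared 59.3%, inside the same range. Because of that likeness between the transcripts, a probe for Acot1 may also have bound Acot2 and the reverse, and their values are given as uncertain in this respect. Guanine and cytosine made up between 43.0% of the window in Cd36 and 65.0% in Fabp3, with a median of 52.7% over all windows.

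All 10 fibre genes of the muscle list, such as Ckm and Acta1, passed the filter. Per array, the median ratio of Cy5 signal to background ran from 2.33 to 3.64, with cHF+ROSI replicate 1 at the lowest value and all other arrays at 2.98 or more. The arrays lay on 4 slides of 4, and every slide held cHF+ROSI samples on positions 1 and 3 and cHF+F+ROSI samples on positions 2 and 4. Position and diet cannot be told apart, and no dyes were swapped. The array values come from whole muscle, in which fewer cells of a type and less RNA per cell cannot be told apart.

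No member gene differed between the groups after adjustment over all probes. Among the 11 probes tested, 0 reached an adjusted p of 0.05 in limma with Benjamini-Hochberg adjustment, the lowest adjusted p being 0.623, against 3 of all 19398 probes, or 0.0155%. At an unadjusted p of up to 0.05, 1 of the 11 member probes was called, a probe of Cpt1b that was higher in the cHF+F+ROSI mice, against 7.44% of all probes in either direction and 3.49% in that direction. The share of members called was thus close to the background. Of the 9 genes, taking the brightest probe for each, 6 had a lower mean in the cHF+F+ROSI mice (Pdk4, Acot1, Acot2, Angptl4, Cd36 and Fabp3) and 3 a higher mean (Ucp3, Cpt1a and Cpt1b). Their median log2 fold change was -0.19, beside -0.00 for all probes. In every gene the groups of mice overlapped, as they did in all but 15 of the 19398 probes (0.0773%).

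**Figure D1:**
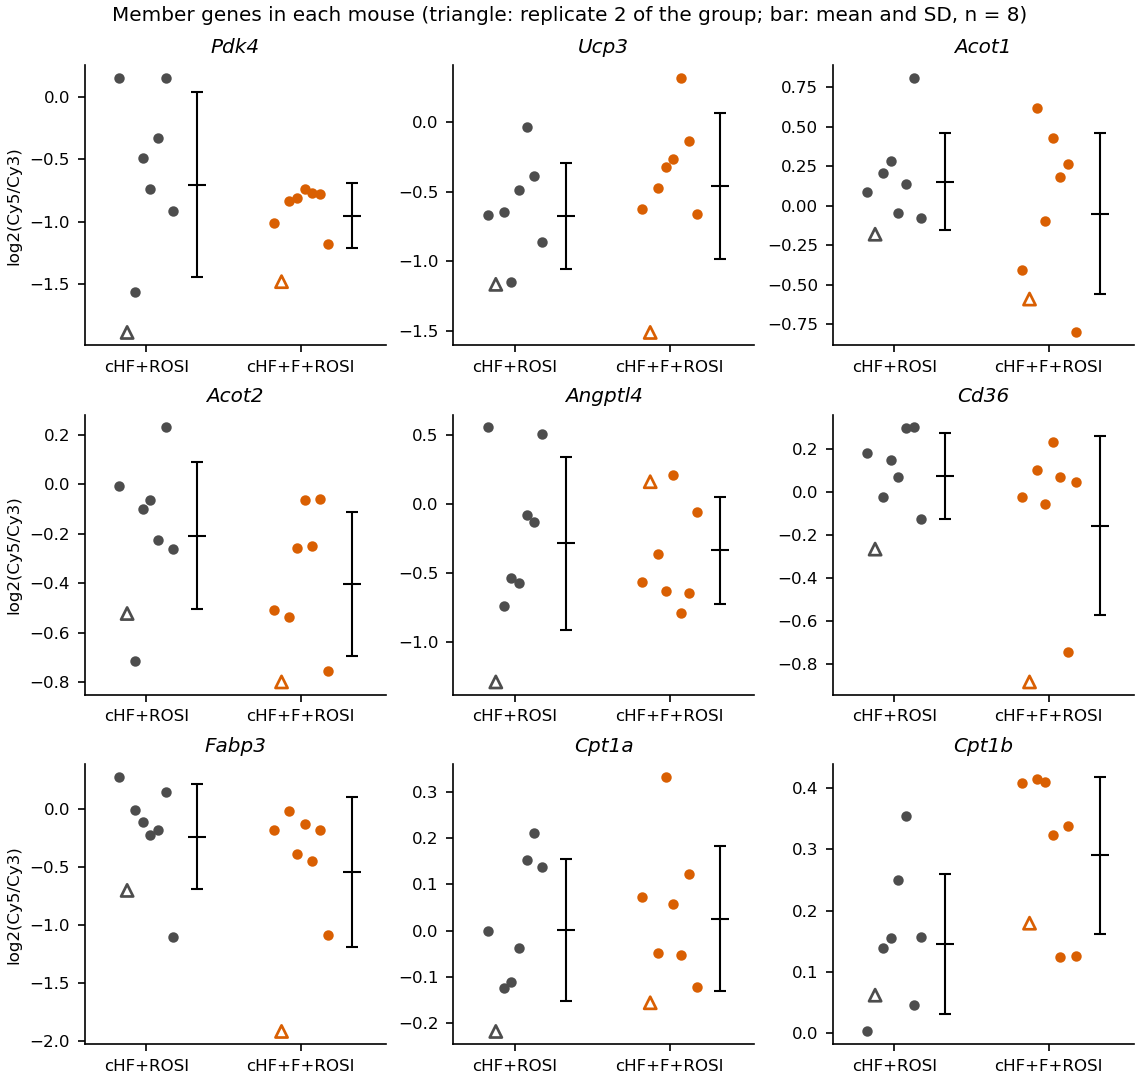
Log2(Cy5/Cy3) of the brightest probe of each of the 9 genes (vertical axes, each with its own range) in every mouse of the cHF+ROSI group (grey) and the cHF+F+ROSI group (orange). Triangles mark replicate 2 of each group, and the bars show the mean and SD (n = 8). The groups overlapped in all 9 genes, and the cHF+F+ROSI mice lay close together for Pdk4, between -1.48 and -0.74.

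Pdk4, the brake on pyruvate dehydrogenase, was the gene with the widest spread among the cHF+ROSI mice. Its log2 ratio there had a lowest value of -1.89, a median of -0.61 and a highest value of 0.15. In the cHF+F+ROSI mice the lowest value was -1.48, the median -0.82 and the highest -0.74. All 8 cHF+F+ROSI mice therefore lay below the mean and the median of the cHF+ROSI mice, yet all of them lay inside the cHF+ROSI range. The log2 fold change was -0.25 ± 0.25 (SE), with a 95% interval from -0.78 to 0.28 (0.584- to 1.21-fold), and the exact permutation test over all 12870 splits of the mice into 8 and 8 gave a two-sided p = 0.384. The adjusted p in limma was 0.867.

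The cHF+F+ROSI mice also lay closer together for Pdk4. The SD among mice was 0.26 in the cHF+F+ROSI group and 0.74 in the cHF+ROSI group, a ratio of 2.83. The mean absolute deviation from the group median was 0.177 and 0.575, and an exact permutation test of this deviation gave p = 0.0331, or 0.298 after Benjamini-Hochberg adjustment over the 9 genes, in a test chosen after the values were seen. None of the other 8 genes had a p below 0.0872 in the same exact test. Of the 19310 probes measured on all arrays, 1.78% had a ratio of the SDs at least as far in this direction, and the median probe was also somewhat less variable in the cHF+F+ROSI mice, with a log2 ratio of the SDs of -0.21. Cd36 stood at the other side, with an SD of 0.42 in the cHF+F+ROSI mice and 0.20 in the cHF+ROSI mice (exact permutation p = 0.436), and 2.86% of all probes had a ratio as high. On all 16 arrays the Cy5 value of Pdk4 was taken from the scan at low laser power. The highest cHF+ROSI values of Pdk4, 0.15 each, were those of replicates 1 and 7. Their arrays had the lowest median Cy5 signal over background of that group, 2.33 and 3.02. Over the 16 arrays, the deviations of Pdk4 from the group means had r = -0.39 with this array measure. The part of array quality in the spread of Pdk4 was not tested.

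The other genes of mitochondrial fuel handling showed no difference beyond the spread among mice. For Ucp3, the anion carrier, the log2 ratio ran from -1.16 over a median of -0.66 to -0.04 in the cHF+ROSI mice, and from -1.51 over -0.40 to 0.31 in the cHF+F+ROSI mice. Of the cHF+F+ROSI mice, 7 of 8 exceeded the cHF+ROSI mean, and the exception, replicate 2, was the lowest of all 16 mice. The log2 fold change was 0.21 ± 0.21 (SE), exact permutation p = 0.367. Without that mouse it was 0.36, with an unadjusted p of 0.0455 and an adjusted p of 0.686 in limma.

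For Acot1, the cytosolic thioesterase, the lowest, median and highest log2 ratios were -0.18, 0.11 and 0.81 in the cHF+ROSI mice and -0.80, 0.04 and 0.62 in the cHF+F+ROSI mice. The fold change on the log2 scale was -0.20 ± 0.19 (SE), exact permutation p = 0.352. Acot2, its mitochondrial relative, had -0.71, -0.16 and 0.23 in the cHF+ROSI mice and -0.80, -0.38 and -0.06 in the cHF+F+ROSI mice. Its log2 fold change of -0.19 ± 0.13 (SE) had an interval from -0.48 to 0.09 (exact permutation p = 0.192). Both thioesterases had their highest cHF+ROSI value in replicate 7, and the cHF+F+ROSI mice with low values of Acot1 (replicates 1, 2 and 8) were also among the low mice for Acot2. The cHF+F+ROSI replicate 3 did not follow, being the highest of its group for Acot1 at 0.62 but at -0.54 for Acot2, below replicate 1 at -0.51.

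At their brightest probes, the carnitine palmitoyltransferases varied least among the mice. The Cpt1a probe A_51_P427674, printed at 10 spots of every array, gave log2 ratios from -0.22 to 0.21 among cHF+ROSI mice (median -0.02) and from -0.16 to 0.33 among cHF+F+ROSI mice (median 0.00). The log2 fold change was 0.02 with a 95% interval from -0.13 to 0.18 (0.911- to 1.14-fold), the narrowest interval among the 9 brightest probes besides that of Cpt1b. Its other probe, A_52_P219753, was too weak for the filter. Without the filter it had a log2 fold change of -0.01, and its correlation with the brighter probe over the mice was 0.01.

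Cpt1b, the muscle form of the enzyme, had 2 probes that disagreed. The brighter one, A_51_P232913, ran from 0.00 to 0.35 among cHF+ROSI mice (median 0.15) and from 0.12 to 0.41 among cHF+F+ROSI mice (median 0.33). In the cHF+F+ROSI group 6 of 8 mice were above the cHF+ROSI mean and 3 lay above its range. The log2 fold change was 0.14 ± 0.06 (SE), or 1.11-fold, with an unadjusted limma p of 0.0308, an adjusted p of 0.623 and an exact permutation p = 0.0356. The unadjusted call was lost when any of 7 single mice was left out (cHF+ROSI replicates 1, 2 and 7 and cHF+F+ROSI replicates 1, 3, 4 and 7). The other probe, A_52_P625508, lies nearby on the same strand and had a log2 fold change of -0.01 (unadjusted p = 0.941 in limma). The 2 probes correlated with r = 0.37 over the 16 mice, with 0.68 among the cHF+F+ROSI mice and -0.28 among the cHF+ROSI mice. The deviations of the brighter probe from the group means also correlated with the Cy5 signal over background of the array (r = 0.55), and its Cy5 values came from the scan at low laser power on all 16 arrays. The part of these array properties in the difference was not tested.

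The genes of fatty acid entry had lower means in the cHF+F+ROSI group without a difference beyond the spread. For Cd36, the fatty acid translocase, the log2 ratio of the probe A_51_P375138 ran from -0.27 to 0.30 among cHF+ROSI mice (median 0.11) and from -0.89 to 0.23 among cHF+F+ROSI mice (median 0.01). Replicates 2 and 7 of the cHF+F+ROSI group, at -0.89 and -0.75, lay below all other mice. The log2 fold change was -0.23 ± 0.15 (SE), exact permutation p = 0.211. The other Cd36 probe, A_51_P375146, gave -0.26 (exact permutation p = 0.154), and the pair agreed over the mice with r = 0.96. On 2 of the 16 arrays the Cy5 values of the Cd36 probes came from the scan at low laser power.

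Fabp3, the fatty acid-binding protein of muscle, had the largest difference between the means. Its log2 ratio ran from -1.11 to 0.27 among cHF+ROSI mice (median -0.15) and from -1.92 to -0.03 among cHF+F+ROSI mice (median -0.29). Its log2 fold change of -0.31 ± 0.25 (SE) had a 95% interval from -0.83 to 0.22 (exact permutation p = 0.306). The cHF+F+ROSI replicate 2 lay below all other mice, and without it the log2 fold change was -0.11. Both channels of Fabp3 were read from the scan at low laser power on all arrays.

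Angptl4, the lipase inhibitor, showed the smallest difference beside Cpt1a. Its log2 ratio ran from -1.29 to 0.55 among cHF+ROSI mice (median -0.33) and from -0.79 to 0.21 among cHF+F+ROSI mice (median -0.46), so that the whole cHF+F+ROSI group lay inside the cHF+ROSI range. The log2 fold change of -0.05 ± 0.23 (SE) had an interval from -0.54 to 0.44 (exact permutation p = 0.849). Its sign turned under several ways of processing the arrays.

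**Figure D2:**
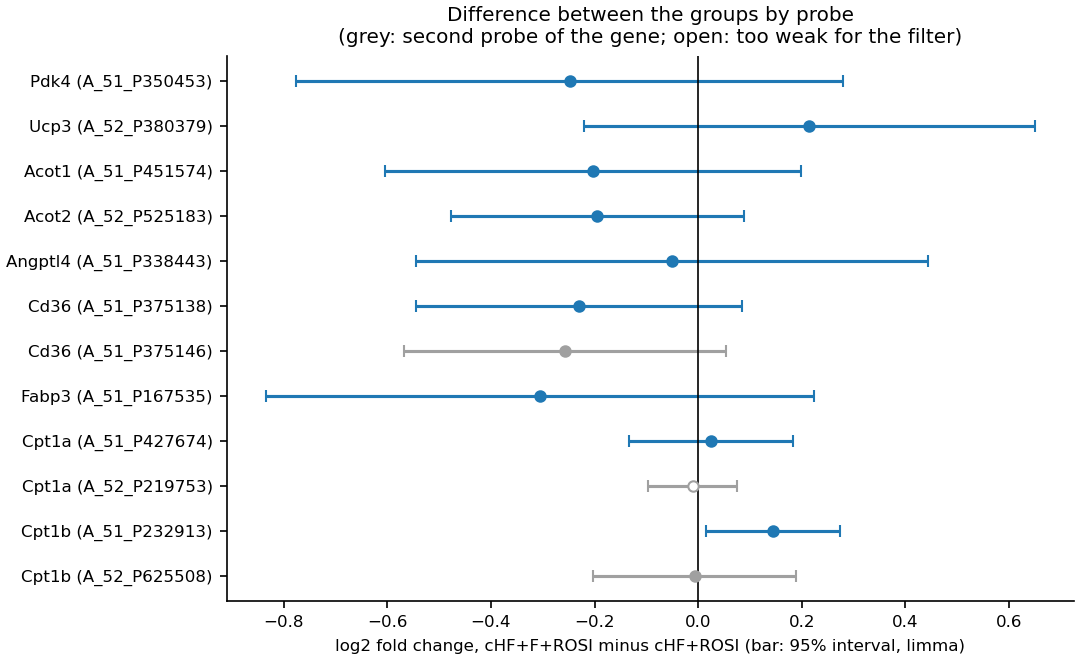
Log2 fold change (horizontal axis, cHF+F+ROSI minus cHF+ROSI) with its 95% interval from limma for the 12 probes of the 9 genes. Blue points are the brightest probe of each gene and grey points the second probe, and the open point did not pass the filter. The interval of the brighter Cpt1b probe alone left out 0, from 0.01 to 0.27, and this probe had an adjusted p of 0.623.

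The positions of the probes, as the files give them on the build mm8 (NCBI36), placed Pdk4 at chr6:5433441-5433500 on the minus strand, Ucp3 at chr7:100359864-100359923 on the plus strand and Angptl4 at chr17:33381815-33381874 on the minus strand. Acot1 was read at chr12:84907250-84907309 and Acot2 at chr12:84882869-84882928, both on the plus strand. The brighter Cpt1b probe covered chr15:89244225-89244284 and the other one chr15:89244658-89244717, both on the minus strand. The Cd36 probe A_51_P375138 was given a span from 17295116 to 17297548 on chromosome 5, minus strand, longer than a probe. The other Cd36 probe lies at chr5:17294606-17294665. Fabp3 was read at chr4:129817668-129817727, and the Cpt1a probe A_51_P427674 at chr19:3385374-3385433, both on the plus strand. The files name a transcript for each probe but no exon or untranslated region.

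Across the mice, most members moved together. Deviations of the log2 ratios from the group means were used, so that a difference between the diets could not produce a correlation. Over the 36 pairs of the 9 genes the mean Pearson r was 0.37, and 32 pairs were positive. The mean was 0.34 within the cHF+F+ROSI mice and 0.42 within the cHF+ROSI mice. For comparison, the median r of a member with all probes of the array lay between -0.03 and 0.04. The share of probes with an r above 0.5 to a member ran from 1.93% for Cpt1a to 9.17% for Fabp3. Among the 7 genes besides Angptl4 and Cpt1b, all 21 pairs were positive, from 0.27 to 0.80, with a mean of 0.53. Those 7 genes were picked after the correlations were seen, and the value is a description. Without replicate 2 of both groups, Cd36 with Cpt1a fell to -0.11 and Acot2 with Cd36 to -0.01. The other pairs among the 7 genes stayed positive.

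**Figure D3:**
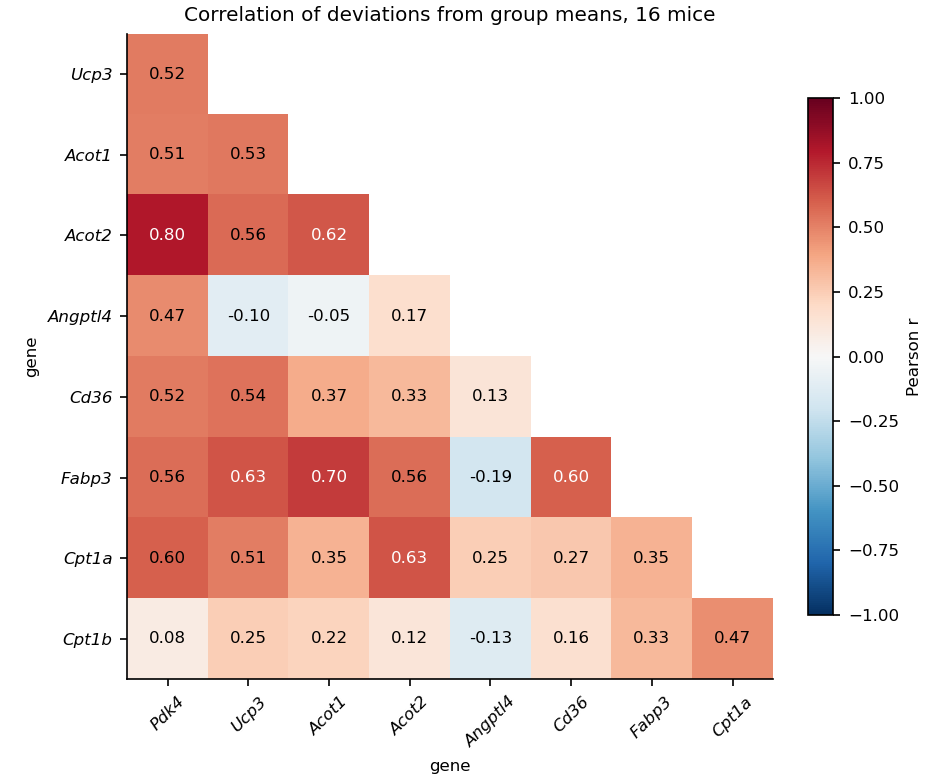
Pearson r between the deviations of the 9 genes from their group means over the 16 mice, as colour and number (both axes name genes). Pdk4 and Acot2 had the highest value, 0.80, and the rows of Angptl4 and Cpt1b hold the values near 0.

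Of the 36 pairs, 13 had a permutation p of up to 0.05 before adjustment. The share of all probe pairs with such a p was not computed. After Benjamini-Hochberg adjustment over the 36 pairs, 3 passed by Pearson r, 3 by Spearman rho and 2 by both. Pdk4 and Acot2 were the closest pair, with r = 0.80 (permutation test with 100000 resamples within groups, adjusted p = 0.00144) and rho = 0.82 (adjusted p = 0.0018). In the cHF+F+ROSI mice r was 0.87 and in the cHF+ROSI mice 0.89, and the value over all mice stayed between 0.75 and 0.83 whichever single mouse was left out. Without the 2 mice farthest from the median of Pdk4 it was 0.74. Among all probes, Acot2 ranked at place 12 by its correlation with Pdk4.

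Acot1 and Fabp3 formed the other pair called by both measures (r = 0.70, adjusted p = 0.0389, and rho = 0.72, adjusted p = 0.0475, by permutation). Without the 2 mice farthest from the median of Acot1, r was 0.65. Its r stayed between 0.66 and 0.78 whichever single mouse was left out, but the call was lost without any of 9 of them (cHF+ROSI replicates 2, 5, 6 and 7 and cHF+F+ROSI replicates 2, 3, 4, 5 and 8). Pdk4 and Cd36 had r = 0.52, adjusted p = 0.0389, and rho = 0.56, adjusted p = 0.0746, by permutation. The r was 0.52 in the cHF+F+ROSI mice and 0.88 in the cHF+ROSI mice, and the call was lost without any of 7 single mice (cHF+ROSI replicates 2, 5, 6 and 7 and cHF+F+ROSI replicates 2, 4 and 5). Pdk4 and Acot1 passed by Spearman alone (rho = 0.61, permutation adjusted p = 0.0475), with r = 0.51 and an adjusted p of 0.0511 by Pearson. Acot1 and Acot2, the pair open to shared hybridisation, had a lower correlation with each other (r = 0.62, permutation adjusted p = 0.0626) than Acot2 had with Pdk4, a difference that was not tested. Pdk4 also had r = 0.52 with Ucp3, 0.56 with Fabp3 and 0.60 with Cpt1a, none of which passed the adjustment.

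Angptl4 and Cpt1b followed the others least. The mean r of Angptl4 with the other 8 genes was 0.07, and 4 of these 8 values were negative. Its correlation with Pdk4 was 0.71 among the cHF+ROSI mice and -0.53 among the cHF+F+ROSI mice. With the 8 other genes it was negative in all 8 cases in the cHF+F+ROSI mice and positive in 7 of 8 in the cHF+ROSI mice, and these values share the same 8 Angptl4 measurements per group. The difference between the groups was not tested. Without the 2 mice farthest from the median of Pdk4, the r over all mice fell from 0.47 to 0.06, so the relation of Pdk4 with Angptl4 rested on them. Cpt1b had a mean r of 0.19 with the other genes, from -0.13 with Angptl4 to 0.47 with Cpt1a.

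The co-variation leaned on a few mice. The cHF+ROSI replicate 2 had the lowest value of its group in 6 of the 9 genes (Pdk4, Ucp3, Acot1, Angptl4, Cd36 and Cpt1a), was below the group mean in all 9, and had a mean deviation of -0.49. The cHF+F+ROSI replicate 2 was likewise the lowest of its group in 6 genes (Pdk4, Ucp3, Acot2, Cd36, Fabp3 and Cpt1a), with a mean deviation of -0.49, but was above its group mean for Angptl4, with a log2 ratio of 0.16. On the high side, cHF+ROSI replicate 7 was the highest of its group in 5 genes (Pdk4, Acot1, Acot2, Cd36 and Cpt1a), with a mean deviation of 0.35, and cHF+F+ROSI replicate 5 was above the group mean in all 9. Without both mice numbered 2, a choice made after their values were seen, the mean pairwise r was 0.19. The correlation of Pdk4 with Acot2 was 0.79 without them (permutation adjusted p = 0.0148), and that of Pdk4 with Cd36 was 0.31. The median Cy5 signal over background was 3.40 for the cHF+ROSI replicate 2 and 2.98 for the cHF+F+ROSI replicate 2, the lowest of its group. The latter array also had the lowest quality weight of its group in limma (0.538). The weight was 1.43 for the cHF+ROSI replicate 2 and 0.636 for the cHF+ROSI replicate 7. These weights were estimated from the same log2 ratios over all probes and are no independent measure of array quality. The part of array quality in the values of these mice was not tested.

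**Figure D4:**
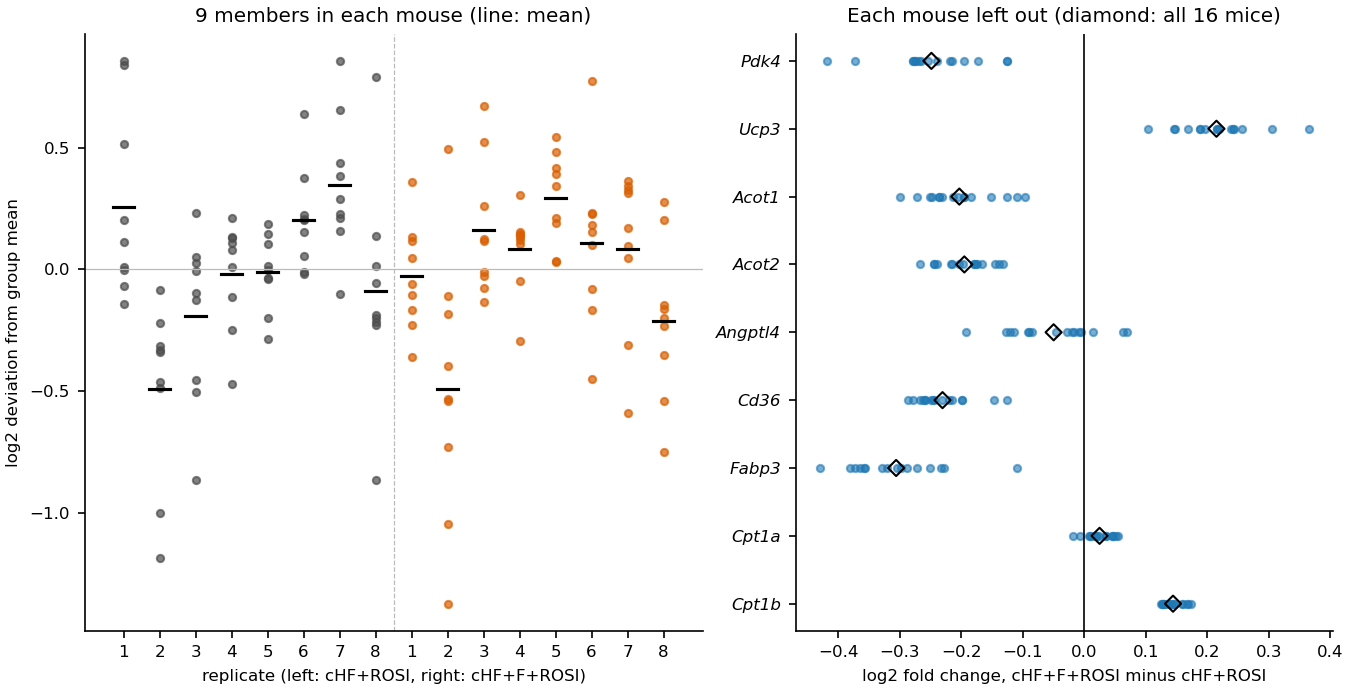
Left, log2 deviation from the group mean (vertical axis) of the 9 genes in each mouse, numbered by replicate, with the mean as a line. Right, log2 fold change of each gene (horizontal axis, cHF+F+ROSI minus cHF+ROSI) with each mouse left out in turn (points) and with all 16 mice (diamond). Replicate 2 of each group had a mean deviation of -0.49, and Angptl4 and Cpt1a had points on both sides of 0.

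Leaving out a single mouse moved the log2 fold changes without bringing any gene past the adjusted threshold. For Pdk4 it lay between -0.42 (without cHF+ROSI replicate 2) and -0.13 (without cHF+ROSI replicate 7). The range was from 0.10 to 0.36 for Ucp3, from -0.30 to -0.10 for Acot1 and from -0.27 to -0.13 for Acot2. Fabp3 ranged from -0.43 to -0.11, Cd36 from -0.29 to -0.13 and Cpt1b from 0.12 to 0.17. Angptl4 changed sign, from -0.19 to 0.07, as did Cpt1a, from -0.02 to 0.05.

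Markers of other cells and fibres were set beside the members, in the same way as deviations from group means. Of the 45 relations between the 9 genes and 5 lists, 2 passed Benjamini-Hochberg adjustment by Pearson r and 0 by Spearman rho, with 6 and 7 at an unadjusted permutation p of up to 0.05. Fabp3 followed the mean of the slow fibre list closely, with r = 0.90 (permutation test, adjusted p = 0.0027) and rho = 0.75 (adjusted p = 0.0747). The r was 0.93 in the cHF+F+ROSI mice and 0.84 in the cHF+ROSI mice. It was 0.66 once the 2 mice most distant from the median of the slow fibre list mean were left out. All 10 slow fibre genes passed the filter, 9 of 10 had a lower mean in the cHF+F+ROSI mice (median log2 fold change -0.28), and none passed the test. The list mean ran from -1.83 to 0.32 among cHF+F+ROSI mice and from -1.07 to 0.62 among cHF+ROSI mice, with cHF+F+ROSI replicate 2 at the lowest value, the mouse that was also lowest for Fabp3. Myh7, the slow myosin heavy chain, had a log2 fold change of -0.54 ± 0.58 (SE). The slow fibre list also had r = 0.65 with Ucp3, 0.55 with Acot1 and 0.55 with Cd36, with unadjusted permutation p-values of 0.0185, 0.0303 and 0.0425 and adjusted values from 0.277 to 0.319. With Pdk4 it was 0.33 over all mice, 0.82 in the cHF+F+ROSI mice and 0.20 in the cHF+ROSI mice. The part of fibre composition in the value of Fabp3 and in the co-variation of the members was not tested.

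Angptl4 followed the adipocyte list, with r = 0.68 (permutation test, adjusted p = 0.031) and rho = 0.67 (adjusted p = 0.0819). The r was 0.77 in the cHF+F+ROSI mice and 0.78 in the cHF+ROSI mice. Once the 2 mice most distant from the median of the adipocyte list mean were left out, it was 0.77. Fat cells make Angptl4 themselves. Of the 10 adipocyte genes 9 were on the array by name and passed the filter, among them Adipoq, Cfd and Plin1, and 7 of the 9 had a higher mean in the cHF+F+ROSI mice, with a median log2 fold change of 0.18 and none past the test. The list mean ran from -1.17 to 0.80 among cHF+F+ROSI mice and from -0.80 to 0.27 among cHF+ROSI mice. The part of fat cells in the Angptl4 values was not tested. Cd36, which fat cells and endothelium also express, had r = 0.13 with the adipocyte list and -0.15 with the endothelial list.

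**Figure D5:**
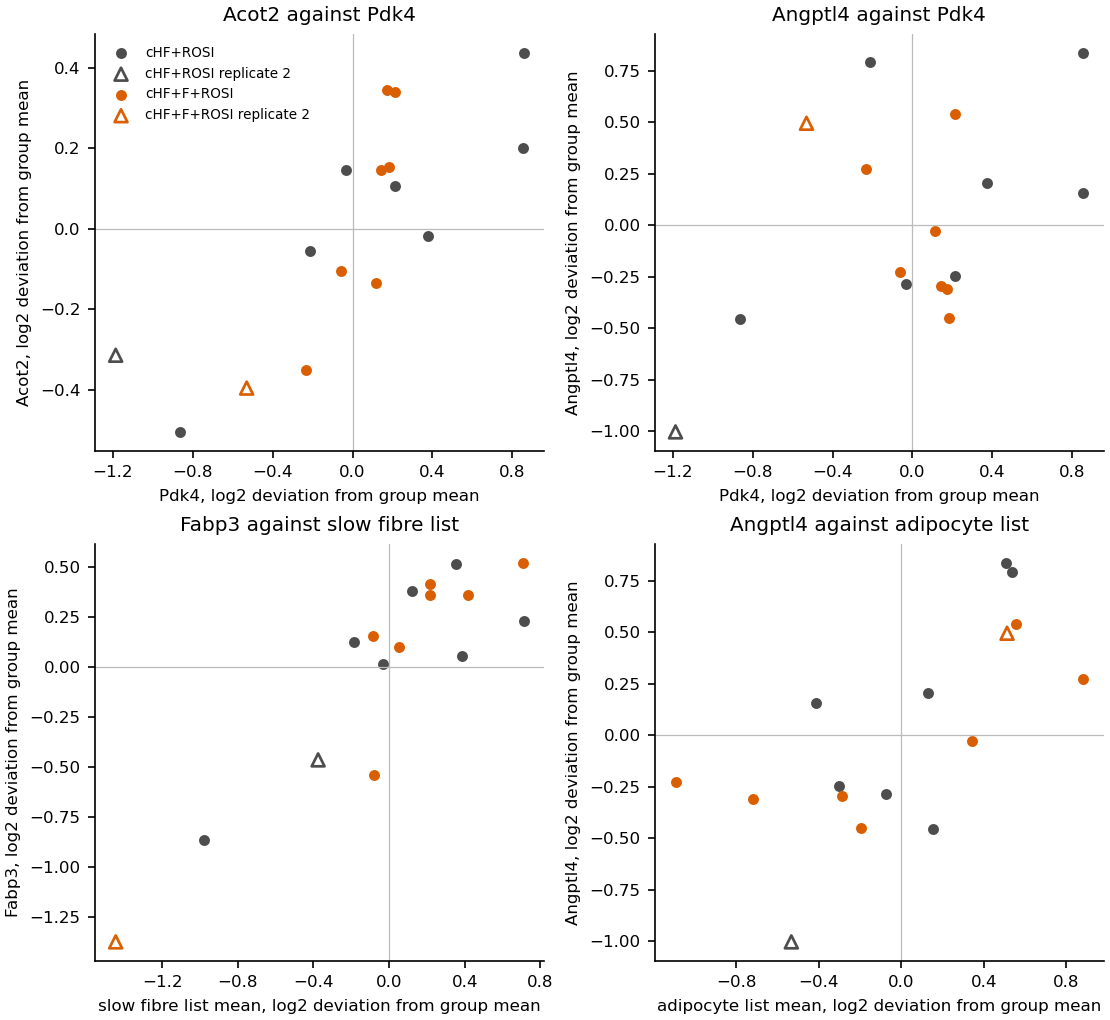
Log2 deviations from the group mean (both axes) in the 16 mice for Acot2 against Pdk4, Angptl4 against Pdk4, Fabp3 against the mean of the slow fibre list and Angptl4 against the mean of the adipocyte list. Grey marks cHF+ROSI and orange cHF+F+ROSI, with replicate 2 of each as a triangle. The points of Acot2 rise with Pdk4 in both groups (r = 0.87 and 0.89), while those of Angptl4 do so in the cHF+ROSI mice (0.71) and not in the cHF+F+ROSI mice (-0.53).

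The endothelial list was the marker list with most unadjusted calls. Of its 10 genes, all of which passed the filter, 5 were called lower in the cHF+F+ROSI mice before adjustment, against 3.95% of all probes in that direction, and 0 after it, with a lowest adjusted p of 0.293 for Emcn. Emcn, a sialomucin of capillaries, had a log2 fold change of -0.24 ± 0.07 (SE) and Cldn5, a tight junction protein of endothelium, -0.45 ± 0.14 (SE). Of the 10 genes, 8 had a lower mean in the cHF+F+ROSI mice and 2 a higher mean, Vwf at 0.20 ± 0.13 (SE) and Tie1 at 0.01 ± 0.06 (SE). The list mean ran from -0.36 to -0.09 among cHF+F+ROSI mice and from -0.20 to 0.03 among cHF+ROSI mice. None of the 9 members correlated with it past the adjusted threshold, and the highest r was 0.51 for Cpt1b. The macrophage list (10 of 10 genes passed) and the red blood cell list (3 of 4) had 0 genes at an unadjusted p of up to 0.05.

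No other gene of the PPAR pathway passed the adjusted threshold either. Of 28 other PPAR target genes 25 passed the filter, and 3 of the 28 were too weak for it. Before adjustment 1 gene of the list was called lower and 2 higher, against 3.95% and 3.49% of all probes in these directions, and the median log2 fold change was -0.01. Plin4, a coat protein of lipid droplets, had the largest difference at 0.46 ± 0.15 (SE) (unadjusted p = 0.00614, adjusted p = 0.457 in limma), and Pnpla2, the adipose triglyceride lipase, had 0.15 ± 0.06 (SE). The receptors themselves had log2 fold changes of -0.08 for Ppara and 0.02 for Pparg, while Ppard was too weak to pass. In the list of 14 receptors and partners, 13 passed the filter, and Lpin1, a partner of PPARα with PGC-1α, alone reached an unadjusted p of up to 0.05 (0.27 ± 0.09 (SE), adjusted p = 0.457 in limma).

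Around Pdk4, 8 of 10 genes of the pyruvate dehydrogenase switch passed, and Pdp1, the phosphatase that opposes Pdk4, was the only gene called before adjustment. Its log2 fold change was 0.24 ± 0.08 (SE) (adjusted p = 0.457 in limma). Of all probes, 7.44% were called before adjustment in either direction and 3.49% in that of Pdp1. Pdp1 has 2 probes, of which 1 was read for this list. Pdk1 and Pdk2, relatives of Pdk4, had -0.09 and -0.10. Of 11 further acyl-CoA thioesterases 7 passed, with a median of -0.02 and no unadjusted call, while Acot3, Acot4, Acot5 and Acot12 were too weak. The genes that FoxO factors and glucocorticoids turn on in fasted muscle, 19 of 22 of which passed, had a median of -0.02. None had an unadjusted call at the 1 probe read for each gene. Foxo1, which has 2 probes, had 0.36 ± 0.23 (SE) at the probe read, with an unadjusted p of 0.147 in limma. The paper lists Foxo1 as higher in the cHF+F+ROSI mice at another probe, which was not read for this list. Of the probes read for the list, that of Ddit4, an inhibitor of mTORC1 signalling, had the largest difference. It was -0.77 ± 0.48 (SE), with an unadjusted p of 0.128 in limma. The mean of this list correlated most with Acot1 (r = 0.60, rho = 0.71). It had r = 0.47 with Ucp3 (rho = 0.44), 0.39 with Fabp3 (rho = 0.53) and 0.34 with Pdk4 (rho = 0.49). With the rest r was 0.27 for Cd36, 0.25 for Acot2, -0.02 for Angptl4, -0.21 for Cpt1a and -0.35 for Cpt1b. None of these passed the adjustment over 45 relations by permutation.

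Of the named genes besides the members, those with the highest r to each member over the 16 mice are given as a description without a test. Probes known only by an accession, a clone or a predicted gene, further probes of a gene and the members themselves were passed over. For Pdk4 they were Unc50 (0.90), Derl2 (0.87) and Timm10b (0.84), and for Acot2 they were Ctla2b (0.84), Vps29 (0.82) and Apool (0.81). Fabp3 had Pla2g12a, Idh2 and Myl3, each at 0.95, of which Myl3 is a slow muscle myosin light chain and Idh2 a mitochondrial dehydrogenase. The slow fibre list also holds Myl3, but reads it at another probe, with a log2 fold change of 0.03 ± 0.09 (SE). Angptl4 had Dctn3 (0.90), Rarres2 (0.89), which encodes chemerin, and Rabac1 (0.88). For Cd36 they were Msto1 (0.79), Mrpl53 (0.76) and Dgat2 (0.75), the last an enzyme of triglyceride synthesis. Ucp3 was nearest to Hpcal1 (0.89), Acot1 to Supt4b (0.88), Cpt1a to Ppp1r12a (0.81) and Cpt1b to Plscr3 (0.89).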

How the data were processed

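RNA from gastrocnemius was measured on 16 two-colour arrays (Cy5 mouse, Cy3 pool), 8 for each diet. The authors deposited spot intensities from Feature Extraction (10.5.1.1 per the file headers, 10.5.5.1 in the submitters' processing notes), with scans at 2 laser powers joined, and a table of log2 values that they normalized against Cy3 after removing weak spots. That table served as an alternative.

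From the deposited intensities, 43379 spots besides controls were background corrected by normexp (offset 50). A spot stayed in where its average over the arrays reached 2 times the background in each channel (20703 spots, 19398 probes). Outlier-flagged spots were dropped per array, log2(Cy5/Cy3) was loess normalized within arrays, and spots of a probe were averaged. The offset shrinks the fold changes of weak probes. Diets were compared with limma 3.58.1 (lmFit, eBayes; R version 4.3.3). P-values were adjusted by Benjamini-Hochberg across all 19398 probes, with a threshold of 0.05. Exact permutation used 12870 splits (smallest possible p 0.000155). Each of the 9 genes, and each gene of the lists, was read at its brightest probe that passed the filter. Correlations used deviations from group means, permuted 100000 times within groups (Python 3.11.15, scipy 1.17.1). The steps were tested on simulated data.

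The members and gene lists were chosen with earlier results of these data known. Named genes were the 9 members with all probes, of each list the 2 genes with the smallest unadjusted p and the 1 with the largest difference, and the 3 named genes nearest to each member. Others in the text illustrate a list and were chosen after their values were seen. Probes carry the gene names of the array design, and 24375 probes matched a RefSeq symbol by accession. No 2 arrays held identical values. Precision is limited by how many arrays there are. Alternatives covered background correction, normalization, channel, filters, flags, blocks for slide or for replicate number, a plain t-test as in the methods, array weights, the authors' table, other probes and each mouse left out. The spread test and the omission of both mice numbered 2 were chosen after seeing the data.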

Additional observations from a re-analysis of the deposited data

Results flagged for a closer look

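In 24 groups of 8 mice (12 probes, 2 groups), 2 values stood apart from the rest of their group by Dixon's test at the 95% level, where chance gives about 1.2. For Acot1, cHF+ROSI replicate 7 lay at 0.81 on the log2 scale and the next mouse at 0.29, a gap of 0.53 of the whole range. With that mouse left out, Acot1 had a log2 fold change of -0.11 in place of -0.20, and cHF+ROSI replicate 7 was also the highest of its group for Pdk4, Acot2, Cd36 and Cpt1a. For the Cpt1b probe A_52_P625508, cHF+F+ROSI replicate 2 lay at -0.82 and the next mouse at -0.42, also a gap of 0.53 of the range. On the brighter Cpt1b probe the same mouse lay at 0.18, inside the range of its group.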

How the results depend on the processing

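No member probe reached an adjusted p of 0.05 under any of the 14 alternatives to the processing or without any single mouse. The median log2 fold change of the 9 genes ran from -0.24 to -0.096 without single mice, and turned to 0.022 with array quality weights. The count at an unadjusted p was 0 with signals processed by Feature Extraction, with median centring and with scale normalization, 3 with the replicate block (Acot2, Fabp3 and the dimmer Cd36 probe), and between 0 and 2 without single mice. The replicate numbers were not taken to pair the mice, since same-numbered mice correlated from -0.34 to 0.73, 4 of 8 pairs were above 0.1 and 2 of 8 mice were closest to their own number. The unadjusted p of the brighter Cpt1b probe held under 10 of 14 other alternatives.

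Directions turned for Pdk4 with array quality weights (0.050), for Angptl4 with Cy5 alone (0.049), in the authors' table (0.031) and with array quality weights (0.022), and for the other probes of Cpt1a (-0.011) and Cpt1b (-0.0069). Without single mice Angptl4 ranged from -0.19 to 0.070 and Cpt1a from -0.019 to 0.055. Scale normalization gave Ucp3 0.68 (adjusted p = 0.959 in limma). The cause of these changes was not tested.

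The mean pairwise r was 0.22 with scale normalization, 0.24 with Cy5 alone and 0.19 without both mice numbered 2. The number of pairs past the adjusted threshold, 3 as reported, ran from 0 to 10 over all settings, with 0 under scale normalization and under deviations from slide means, where swaps within slides allow no p below 0.00781. Pdk4 with Acot2 kept its call without each of the 16 mice, and lost it with scale normalization (0.48), from slide means (0.85) and within the cHF+ROSI mice (0.89). Pdk4 with Cd36 lost its call with scale normalization (0.41), Cy5 alone (0.51), slide means (0.59), no centring on group means (0.55), within the cHF+F+ROSI (0.52) and cHF+ROSI mice (0.88), by Spearman (0.56) and without both mice numbered 2 (0.31). Acot1 with Fabp3 lost its call with scale normalization (0.60), Cy5 alone (0.66), slide means (0.94), within the cHF+F+ROSI (0.74) and cHF+ROSI mice (0.61) and without both mice numbered 2 (0.64). Pdk4 with Acot1 gained a call without background correction (0.56), with signals processed by Feature Extraction (0.55), in the authors' table (0.55) and by Spearman (0.61). Pdk4 with Fabp3 gained a call without background correction (0.55), with Feature Extraction signals (0.53), median centring (0.59) and the authors' table (0.54). Pdk4 with Ucp3 gained a call with median centring (0.56) and within the cHF+F+ROSI mice (0.90) and turned with scale normalization (-0.29). Pdk4 with Angptl4 turned within the cHF+F+ROSI mice (-0.53). Pdk4 with Cpt1b turned with scale normalization (-0.58), Cy5 alone (-0.24), no centring (-0.057), within the cHF+ROSI mice (-0.047) and without both mice numbered 2 (-0.15). Without single mice, r of Pdk4 ran from 0.44 to 0.59 with Ucp3, 0.40 to 0.59 with Acot1, 0.44 to 0.66 with Cd36, 0.51 to 0.69 with Fabp3, 0.49 to 0.68 with Cpt1a and -0.049 to 0.27 with Cpt1b. Per array, the median Cy3 signal was 1.78 to 2.02 times the background, which limits what weak probes can show.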
